A study of Mus musculus with 15 samples.

Results

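RNA of whole C57/BL6 testes was sequenced in 15 libraries, 3 for each of the 5 groups that the labels name Control, MTX, HMS-I1, AA and TSA. The comparison described here sets 2 of them, TSA replicates 2 and 3, against 7 others: Control replicate 3 and replicates 2 and 3 of MTX, HMS-I1 and AA. These 9 of 15 libraries were chosen by the make-up of their RNA, and the 7 are called the like libraries. Mitochondrially encoded genes held 3.54% to 13.7% of the normalised counts in the 9 libraries and 1.08% to 1.40% in the other 6, and 60 histone genes had a mean log2 level of 2.95 to 3.86 in the 9 and 7.79 to 8.82 in the other 6. Both measures chose the libraries, so neither measure was tested. Their single genes stayed among all genes tested below. There 0 of 13 mitochondrial and 2 of 60 histone genes (3.33%, beside 7.14% of all) were lower, and nothing is read from them. The other 6 libraries are Control replicates 1 and 2 and replicate 1 of MTX, HMS-I1, AA and TSA, and TSA replicate 1 is shown only beside its 5 companions. All groups share the strain and the tissue, the labels spell out none of the treatment names, and they give no dose, age or duration. The HMS-I1 libraries follow their titles, although the treatment entries of these 3 libraries differ (HMS-I1, HMS-I2, HMS-I3). Nothing ties replicates to different animals, and a p-value here reflects only how much these libraries vary, possibly for technical reasons.

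Spermatogenesis runs from spermatogonia, the stem and dividing cells at the edge of the seminiferous tubule, through spermatocytes in meiosis to haploid spermatids. Round spermatids build the acrosome, the enzyme-filled cap that later meets the egg, and transcribe much of what the sperm will need. Elongating spermatids then replace histones by transition proteins and protamines, shape the head with a transient microtubule sleeve called the manchette, and assemble the tail with its axoneme, outer dense fibres and fibrous sheath. Many of their messages are made early and stored, because transcription stops as the chromatin is packed. A whole testis mixes all of these stages with Sertoli, Leydig, myoid, vessel and immune cells. In such bulk libraries fewer cells of a type and less RNA per cell cannot be told apart.

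Promoter sequence is shown for 5 of the spermatid genes on which the results turn, because the cAMP response element TGACGTCA, the site of the spermatid activator CREM, is a known feature of promoters of this stage. They are the 120 bases before the RefSeq start in build GRCm38.p6, on the coding strand: Izumo1 at chr7:45621691-45621810 (plus), Ccin at chr4:43983384-43983503 (plus), Acrv1 at chr9:36693100-36693219 (plus), Tnp2 at chr16:10788656-10788775 (minus) and Prm2 at chr16:10792106-10792225 (minus). Capitals mark the full element TGACGTCA in the first 2 sequences and, in Prm2, the letters TATAAA of a TATA box, matched on the opposite strand. Only this spelling was searched, so the match does not set the direction of a TATA box. Other TATA-like letters, such as tatataa in Tnp2, stay unmarked. The 5 genes were picked after their matches and values had been seen.
Izumo1: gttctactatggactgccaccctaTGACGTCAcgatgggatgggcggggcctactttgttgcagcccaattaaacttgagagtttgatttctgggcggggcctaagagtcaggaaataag
Ccin: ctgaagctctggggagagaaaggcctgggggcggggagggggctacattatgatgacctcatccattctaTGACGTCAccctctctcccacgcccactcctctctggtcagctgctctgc
Acrv1: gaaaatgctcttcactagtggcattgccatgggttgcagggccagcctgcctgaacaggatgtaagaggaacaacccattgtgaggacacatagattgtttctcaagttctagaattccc
Tnp2: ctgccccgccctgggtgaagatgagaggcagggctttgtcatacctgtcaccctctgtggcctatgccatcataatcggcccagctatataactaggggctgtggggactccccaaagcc
Prm2: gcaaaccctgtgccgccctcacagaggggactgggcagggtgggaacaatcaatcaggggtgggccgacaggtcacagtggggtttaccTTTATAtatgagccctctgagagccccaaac
A search of the 250 bases before each start, on both strands, found the full element in 1.93% of promoters of genes that were lower in TSA replicates 2 and 3, in 2.23% of promoters of the other genes tested and in 1.55% of all promoters in the table. The shorter core TGACG, which lies within the full element, was in 18.0%, 23.4% and 17.8% of the same 3 sets, and TATAAA in 10.4%, 7.23% and 12.4%. The table held promoters for 865 of the 1277 lower genes. Among the 32 promoters matched for a list of round spermatid and acrosome genes, 1 (3.12%), that of Izumo1, held the full element and 9 (28.1%) the core TGACG. Among 40 matched for a list of tail and elongating spermatid genes 1 (2.5%), that of Ccin, held the full element. Among 13 matched for the exchange of histones for protamines 0 did. These are matches of letters in a window and do not show that a site is used.

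Genes were tested where their mean over the 15 libraries reached 10 normalised counts, which left 17896, each compared between TSA replicates 2 and 3 and the 7 like libraries. The difference is a mean of log2(normalised count + 1), TSA minus like, and a gene is called lower or higher where the limma p-value, adjusted over all genes tested, is under 0.05. The filter fell between genes with means of 10.01 and 9.99. In the 9 libraries the correlation of log2 values between pairs lay between 0.892 and 0.985, and no 2 libraries were identical. The normalised counts summed to 2.75e+07 to 4.06e+07 per library, which are not sequencing depths, and the depth is unknown. MTX replicate 2 had the largest mitochondrial share and the largest sum among the 7.

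Genes that fell made up nearly all of the change. In TSA replicates 2 and 3, 1277 genes were lower (7.14% of those tested) and 3 were higher (0.0168%), while the median over all genes was 0.05. The lower genes fell by a median of 1.81 on the log2 scale, which is 3.50-fold, with quartiles of -2.36 and -1.35. Of these genes, 512 fell by 2 or more, 123 by 3 or more and 128 by less than 1. Both TSA libraries lay below all 7 like libraries for 1276 of them. Over all genes tested, both lay below in 12.1% and above in 3.58%. Together these genes held 2.45% and 3.87% of the non-mitochondrial counts in TSA replicates 2 and 3 and 7.43% to 9.10% in the like libraries, a gap that the selection of the genes in part sets. The count of lower genes rests heavily on TSA replicate 2, the lower of the pair: without it, when the lone TSA library is assumed to vary like the others, 262 genes were lower. With Control, MTX, HMS-I1 and AA weighted as separate group means it was 437, and without both AA libraries 838.

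**Figure D1:**
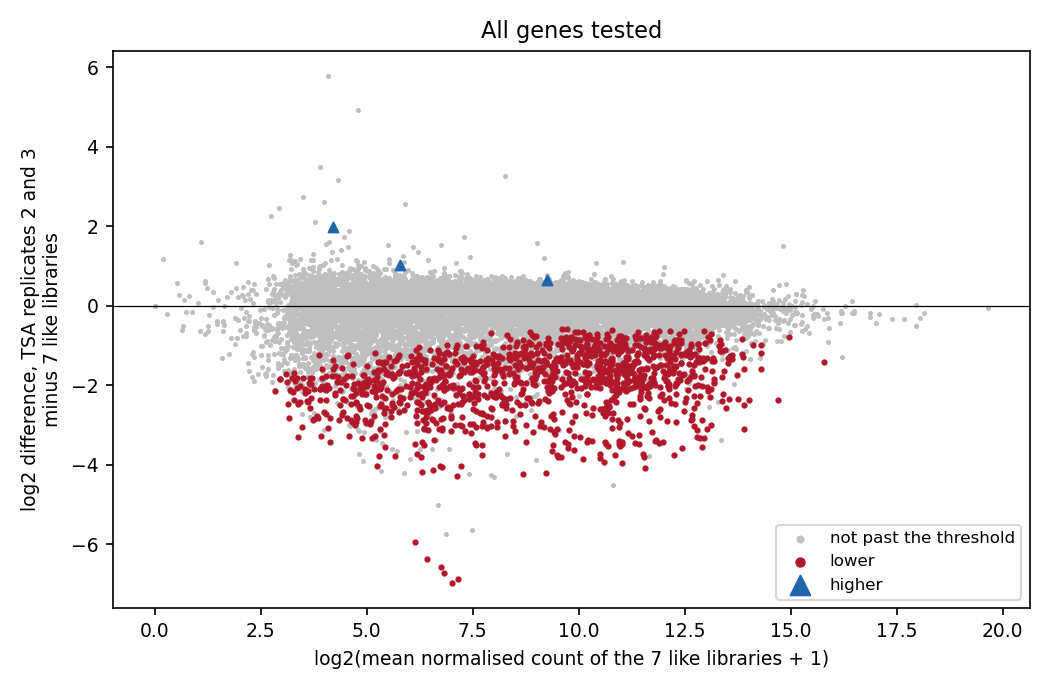
Each point is 1 of the 17896 genes tested; the x axis is the log2 of the mean normalised count of the 7 like libraries plus 1, and the y axis is the log2 difference of TSA replicates 2 and 3 from the like libraries. The 1277 lower genes (red) spread over all levels and the 3 higher genes (blue triangles) are at 0.65, 1.02 and 1.98.

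The 12 largest falls among genes with a standard symbol had log2 differences from -4.09 to -3.73. Cst13, a cystatin, had 37.6 and 767 normalised counts in TSA replicates 2 and 3, against 2148, 2754 and 4891 as the lowest, median and highest of the 7 like libraries, and fell by 4.09 on the log2 scale (SE 0.82, adjusted p = 0.0115). Prss52, a serine protease, had 31.9 and 536 against 1758, 2000.1 and 2493 and fell by 3.95 on the log2 scale (SE 0.73, adjusted p = 0.00786). Cd46, a complement regulator that rodents place on the acrosome, had 17.7 and 155 against 564, 750.01 and 946 and fell by 3.81 on the log2 scale (SE 0.59, adjusted p = 0.00386). In all 3 genes TSA replicate 2 held less than TSA replicate 3, and neither reached the lowest like library. The same held for the other 9 of the 12, Slc10a2, Tmco5b, Dcdc2c, Ccdc185, Iqcf6, Hemgn, Dusp21, Saxo1 and Pex5l. Slc10a2, the bile acid transporter of the ileum, had 0.528 normalised counts in TSA replicate 2 and 23.8 in TSA replicate 3, and a lowest like value of 71.2. The calls of Cst13 and Slc10a2 ended without TSA replicate 2, where the differences were -1.93 and -2.06 (adjusted p = 0.0595 and 0.0877).

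To place the falls along spermatogenesis, 7 lists of stage genes were read in order. The list medians were 0.18 for undifferentiated spermatogonia, 0.25 for differentiating spermatogonia and meiotic entry, -0.09 for leptotene and zygotene spermatocytes and -0.19 for pachytene and later spermatocytes. They were -1.69 for round spermatids and the acrosome, -0.91 for the exchange of histones for protamines and -0.40 for the tail sheath and elongating spermatids, beside 0.05 for all genes. The round spermatid list thus had the lowest median of the 7, and the later lists lay between it and the meiotic lists. Called lower were 0 of 16, 0 of 15, 0 of 26, 2 of 22, 16 of 29, 4 of 15 and 10 of 36 members in this order, beside 7.14% of all genes tested, and 0 were called higher. In the round spermatid list the median deviation of TSA replicates 2 and 3 was -2.20 and -0.84, while the 7 like libraries lay between -0.19 and 0.19. In the exchange list it was -1.19 and -0.77, so the gap between these 2 lists came mostly from TSA replicate 2.

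**Figure D2:**
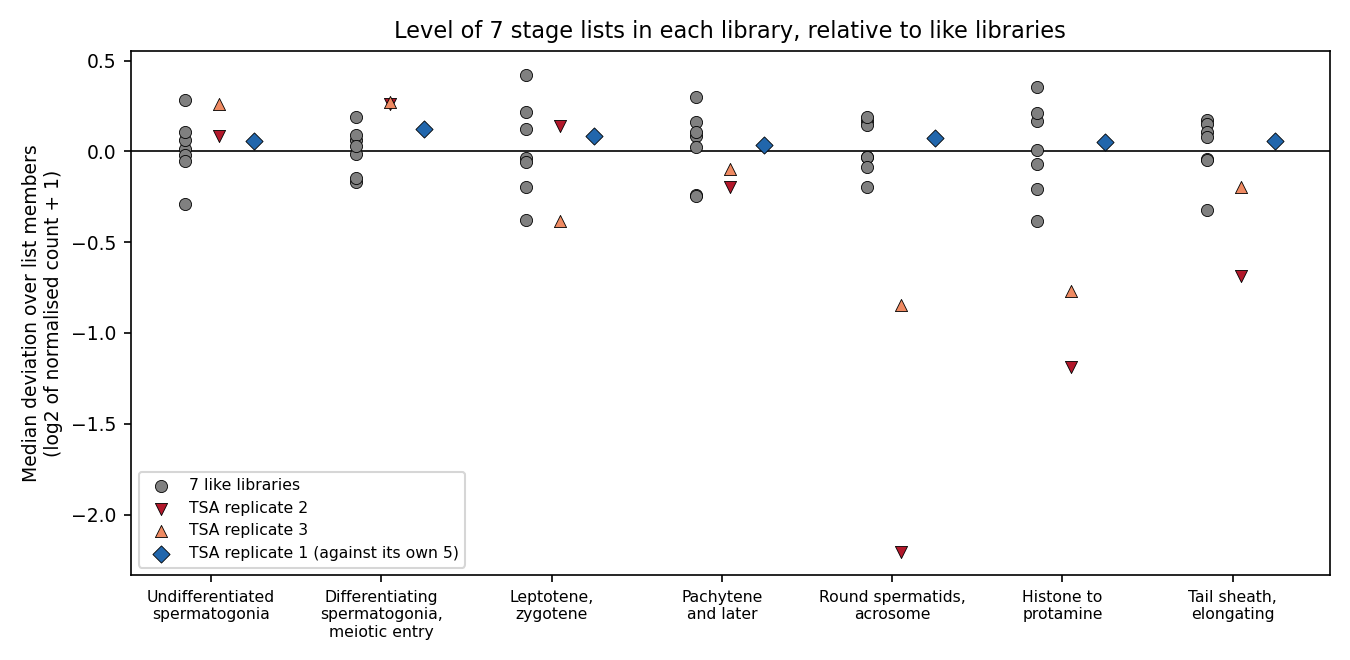
For each of the 7 stage lists, points give the median over list members of a library's log2 deviation from the mean of its comparison libraries; grey circles are the 7 like libraries, triangles TSA replicates 2 (down) and 3 (up), and the blue diamond is TSA replicate 1 against its own 5 companions. In the round spermatid list TSA replicate 2 stands at -2.20, TSA replicate 3 at -0.84 and TSA replicate 1 at 0.07.

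Spermatogonial genes showed no called change. Gfra1, the receptor subunit by which stem spermatogonia sense GDNF, had 83.2 and 115 normalised counts in TSA replicates 2 and 3 and 81.6, 92.9 and 132 as lowest, median and highest like values (log2 difference -0.03, SE 0.26, adjusted p = 0.972). Zbtb16, a transcription factor of undifferentiated spermatogonia, had 255 and 286 against 118, 202 and 332 (log2 difference 0.42, SE 0.31, adjusted p = 0.626). For both, the TSA values lay within the range of the like libraries. Kit, the receptor that marks differentiating spermatogonia, had 1208 and 1713 against 707, 999 and 1332 (log2 difference 0.53, SE 0.27, adjusted p = 0.426), so that TSA replicate 3 lay above the like range. Stra8, which brings germ cells into meiosis, had 1009.5 and 723 against 636, 833 and 1452 (log2 difference 0.07, SE 0.30, adjusted p = 0.952). The lowest member of each of these 2 lists, Lhx1 at -1.37 and Tex15 at -1.29, were not called (adjusted p = 0.243 and 0.433), and both were named after their values were seen.

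Meiotic genes gave no call up to the zygotene stage. Prdm9, the methyltransferase that sets recombination hotspots, had 464 and 208 normalised counts in TSA replicates 2 and 3 against 129, 321 and 372 (log2 difference 0.25, SE 0.47, adjusted p = 0.867). Dmc1, the meiotic strand exchange protein, had 1125 and 743 against 729, 982 and 1041 (log2 difference 0.02, SE 0.21, adjusted p = 0.984). Sycp3, a core protein of the synaptonemal complex, had 15908 and 5319.99 against 5133, 13186 and 20766 (log2 difference -0.33, SE 0.56, adjusted p = 0.848). The TSA pair parted here: the list's median deviation was 0.14 in TSA replicate 2 and -0.38 in TSA replicate 3, and the like libraries ranged from -0.38 to 0.42. Replicates 2 and 3 parted in the same direction in MTX, at 0.42 and -0.20, and in HMS-I1, at 0.125 and -0.38. In AA they stood at -0.04 and -0.06. This list varied widely within the like libraries, and small changes in it were not detectable.

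Among pachytene and later spermatocyte genes, Calr3 and Nme5 were called lower. Calr3, the testis calreticulin that helps fold sperm surface proteins, had 301 and 1633 normalised counts in TSA replicates 2 and 3 against 5902, 7326 and 8675 and fell by 3.31 on the log2 scale (SE 0.47, adjusted p = 0.00334). Nme5, a nucleoside diphosphate kinase family member of late germ cells, had 1814 and 1789.8 against 2465, 2978 and 3856 and fell by 0.75 on the log2 scale (SE 0.19, adjusted p = 0.0435). The call of Nme5 ended in 16 of the 22 alternatives tried. The best known spermatocyte genes stayed in or near the like range. Piwil1, the PIWI protein of pachytene piRNAs, had 15342 and 16201 against 7218, 11746 and 14253 (log2 difference 0.50, SE 0.24, adjusted p = 0.396). Ldhc, the germ cell lactate dehydrogenase, had 80489 and 110627 against 82259.5, 127120.1 and 179159 (log2 difference -0.44, SE 0.33, adjusted p = 0.629). The log2 differences of Pgk2, a phosphoglycerate kinase, and Hspa2, a chaperone of meiotic cells, were -0.19 and 0.13, and neither was called.

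Round spermatid and acrosome genes fell in 16 of 29 cases (55.2%, beside 7.14% of all genes tested), and 21 of 29 had both TSA libraries below all 7 like libraries, beside 12.1%. Acrv1, a protein of the acrosomal matrix, had 1019 normalised counts in TSA replicate 2 and 2226 in TSA replicate 3. The like values of Acrv1 were 8276 in Control replicate 3, 8062 and 8244 in MTX, 6338 and 5594 in HMS-I1, and 9073 and 6444 in AA replicates 2 and 3. Both TSA values were well under all of them, and Acrv1 fell by 2.28 on the log2 scale (SE 0.29, adjusted p = 0.0026). Izumo1, the sperm protein that binds the egg receptor Juno before fusion, had 329.7 and 884, against 3306 in Control replicate 3, 2919 and 2882 in MTX, 2473 and 2229 in HMS-I1, and 3188 and 2399 in AA. Izumo1 fell by 2.34 on the log2 scale (SE 0.31, adjusted p = 0.00265), and here too TSA replicate 2 held the lowest value of the 9.

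Other members of this list fell to a like extent. Eqtn, a membrane protein of the acrosome, had 789 and 940.2 normalised counts in TSA replicates 2 and 3 against 2809, 5298 and 9344 as lowest, median and highest like values and fell by 2.66 on the log2 scale (SE 0.35, adjusted p = 0.00262), the largest fall of the list. Fam209, a partner of the acrosome anchor Dpy19l2, had 302 and 649.5 against 1928, 2616 and 2806 and fell by 2.47 on the log2 scale (SE 0.27, adjusted p = 0.0026). Spaca1, an acrosomal membrane protein needed for the cap's shape, had 1415 and 1844 against 3607, 6405 and 10393 and fell by 2.01 on the log2 scale (SE 0.35, adjusted p = 0.00604). Of these, the call of Spaca1 ended without TSA replicate 2 (-1.82, adjusted p = 0.111). A pair of actin-like proteins of the sheath around the spermatid nucleus also fell: Actl7a, by 1.32 (adjusted p = 0.00582), and Actl7b, by 1.30 (adjusted p = 0.0095). The CatSper channel subunits Catsper3 and Catsper4 fell by 1.91 and 1.86. Without TSA replicate 2 most calls of the list ended, and its median was -0.84. With group means 6 of 29 were lower, beside 437 of the 17896 genes tested.

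Not all acrosome genes were part of this. Acr, the precursor of the acrosomal protease acrosin, had 3204 and 3389 normalised counts in TSA replicates 2 and 3 against 3484, 3894 and 5064 (log2 difference -0.30, SE 0.18, adjusted p = 0.545), below the like range by little. Spink2, an inhibitor of acrosin, had 10088 and 7467 against 7184, 11172 and 13684 (log2 difference -0.23, SE 0.28, adjusted p = 0.78). Dpy19l2, which anchors the acrosome to the nucleus, had 7633 and 5786 against 5268, 7986 and 10838 (log2 difference -0.20, SE 0.27, adjusted p = 0.802). None of the 3 was called. Zpbp, a zona pellucida binding protein of the acrosome, was called with a small fall of 0.64 (adjusted p = 0.0454), and its paralogue Zpbp2 was not, at -0.16.

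The exchange of histones for protamines gave 4 called genes of 15 (26.7%, beside 7.14% of all genes tested). Chd5, a chromatin remodeller that takes part in histone removal, had 1694 and 3740.2 normalised counts in TSA replicates 2 and 3 against 8546, 10438 and 26268 and fell by 2.36 on the log2 scale (SE 0.44, adjusted p = 0.00841). Tnp2, transition protein 2, had 16079 and 26813 against 37750.5, 54419.6 and 83911 and fell by 1.42 on the log2 scale (SE 0.32, adjusted p = 0.0208). Hmgb4, a high mobility group protein of spermatids, fell by 1.60 (adjusted p = 0.023), and Camk4, a kinase that phosphorylates protamine 2, fell by 1.17 (adjusted p = 0.0122). Tnp1, transition protein 1, had 19232 and 49245 against 57753, 73727 and 104312, with both TSA values below the like range but an adjusted p of 0.0535 (-1.29, SE 0.35). Prm1 had 26506 and 34925 against 27525, 65119 and 87407 (log2 difference -0.91, SE 0.41, adjusted p = 0.34), and the 2 AA libraries, at 38484 and 27525, stood near the TSA values. Prm2 had 74940.4 and 90829 against 59107, 87124 and 115449.8 (log2 difference -0.14, SE 0.29, adjusted p = 0.882), within the like range. Hils1, a spermatid linker histone, had 409 in TSA replicate 2 and 4525 in TSA replicate 3, where the lowest like value was 4378, and was not called (adjusted p = 0.0732). With group means, and with all 15 libraries, 0 of 15 were called, beside 437 and 462 of the 17896 genes tested. Without TSA replicate 2 none of the 4 calls was left either, with Chd5 at -1.78 (adjusted p = 0.182) and Tnp2 at -1.05 (adjusted p = 0.331).

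Tail and sheath genes split. Of 36 members, 10 were lower (27.8%, beside 7.14% of all genes) and 15 had both TSA libraries below the like range. Ccin, calicin, a basic protein of the sheath behind the nucleus, had 106 normalised counts in TSA replicate 2 and 1107 in TSA replicate 3, against 3385 in Control replicate 3, 3196 and 4272 in MTX, 4071 and 3915 in HMS-I1, and 4541 and 3218 in AA. It fell by 3.46 on the log2 scale (SE 0.62, adjusted p = 0.00687), and the pair of TSA libraries differed from each other more than the 7 like libraries did. Cylc1, cylicin of the same structure, had 1055 and 692 against 2046, 6284 and 21821 and fell by 3.00 on the log2 scale (SE 0.75, adjusted p = 0.0363). Odf3, an outer dense fibre protein, had 121 and 607 against 1266, 1734 and 2368 and fell by 2.70 on the log2 scale (SE 0.47, adjusted p = 0.00615). Akap3, an anchoring protein of the fibrous sheath, had 2559.7 and 10311 against 23892, 26495 and 29472 and fell by 2.38 on the log2 scale (SE 0.39, adjusted p = 0.00495). Also lower were the sheath proteins Ropn1 and Cabyr, the spermatid kinases Tssk1 and Tssk2, the actin-capping subunit Capza3, and Ccer1.

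Several main structural genes of the tail were not called. Akap4, the main fibrous sheath protein, had 34486 and 58277 normalised counts in TSA replicates 2 and 3 against 52279, 54537 and 62449 (log2 difference -0.33, SE 0.24, adjusted p = 0.622), with TSA replicate 2 below and TSA replicate 3 inside the like range. Odf1, the main outer dense fibre protein, had 21600.3 and 30805 against 18824, 30754 and 36806 (log2 difference -0.14, SE 0.27, adjusted p = 0.869). Oaz3, the spermatid antizyme, had 27212 and 36820.2 against 22371, 31189.7 and 44116 (log2 difference 0.01, SE 0.27, adjusted p = 0.996). Odf1 and Oaz3 lay inside the like range in both TSA libraries. For Smcp, the protein of the mitochondrial capsule, the difference was -0.20 (SE 0.62), for Gapdhs, the sperm glycolytic enzyme, -0.11 (SE 0.27), and for Tssk6, a kinase of late spermatids, -0.02 (SE 0.58). The SE of Smcp and Tssk6 is wide, so changes of the size called in Tssk2 (-1.11) were not detectable in them. Without TSA replicate 2 the median of the tail list was -0.19 and most of its calls ended, among them Odf3, at -1.54, and Cylc1, at -3.30.

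**Figure D3:**
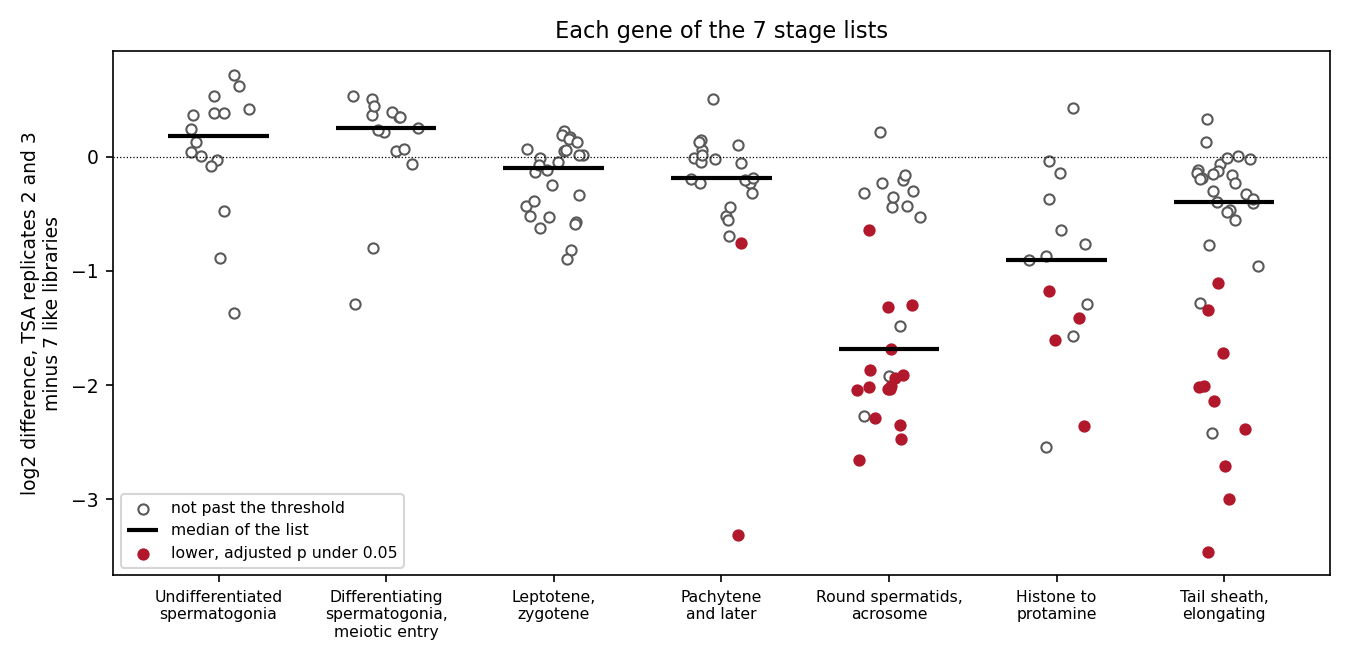
Each point is a gene of the 7 stage lists; the y axis is its log2 difference between TSA replicates 2 and 3 and the 7 like libraries, red where it was called lower, and bars are list medians. The round spermatid list holds 16 red points of 29, the lowest at -2.66, and its open points reach 0.22.

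**Figure D4:**
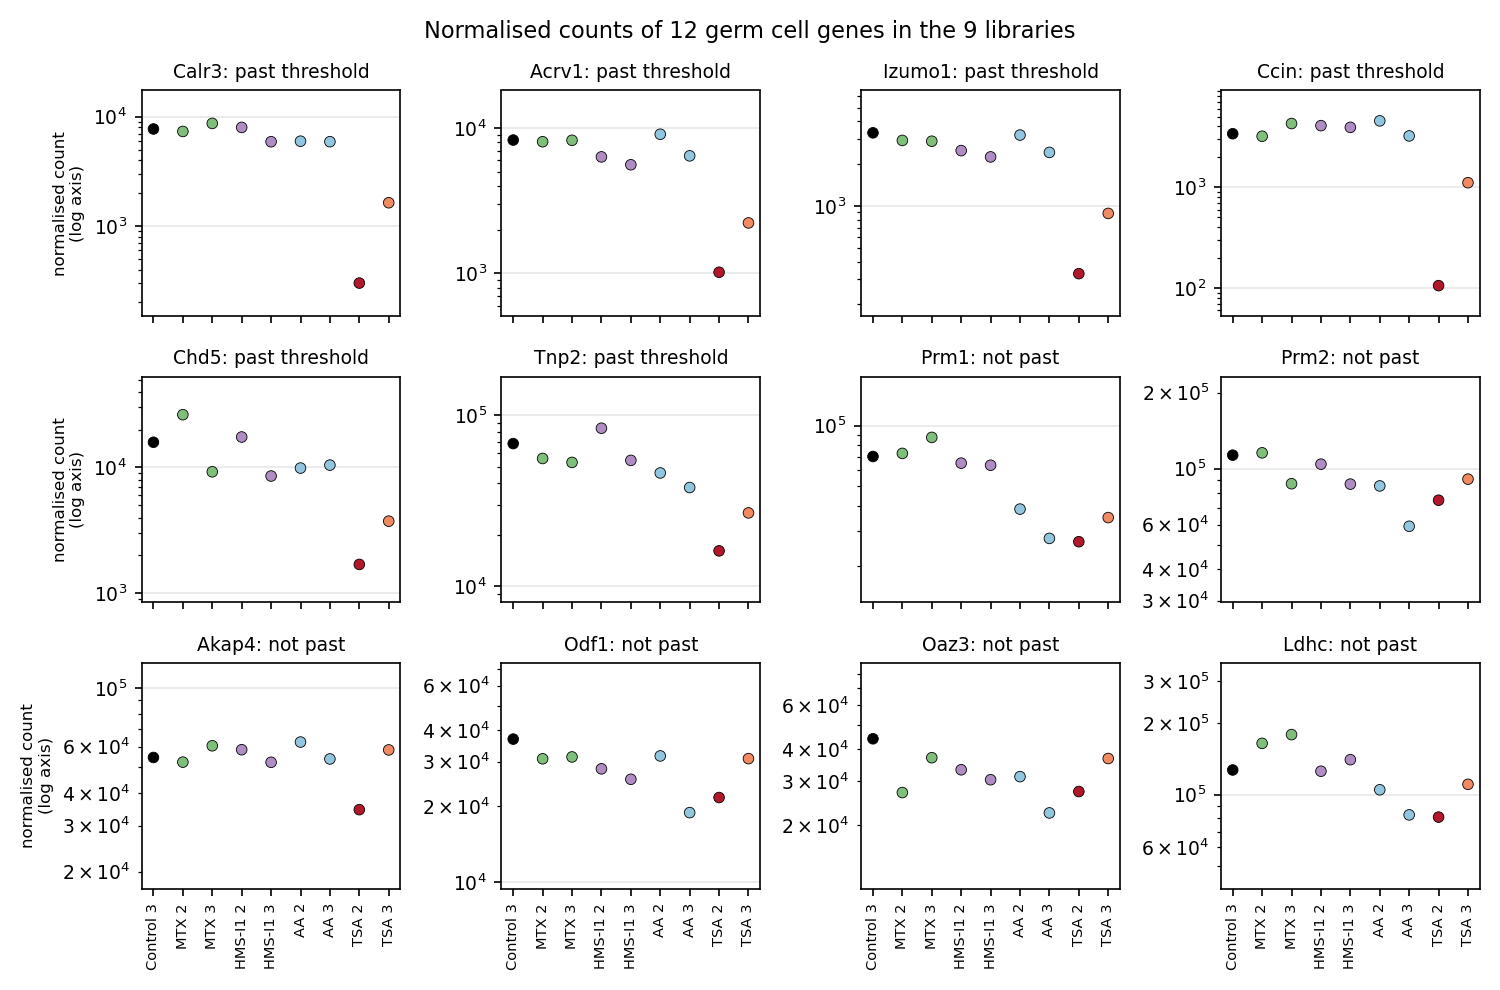
Normalised counts (log axis) of 12 germ cell genes in each of the 9 libraries, coloured by group, with the title saying whether the gene was called. In Calr3, Acrv1, Izumo1, Ccin, Chd5 and Tnp2 both TSA points lie under all others, in Prm1 the AA points are as low as TSA, and in Prm2, Odf1 and Oaz3 the TSA points lie among the others.

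Genes for the moving core of the tail, the axoneme, and for flagellar transport gave 3 called of 28 (10.7%, near the 7.14% of all genes tested), with a list median of -0.17. Tekt5, a tektin filament protein, had 433 and 1779 normalised counts in TSA replicates 2 and 3 against 4217, 4768 and 5945 and fell by 2.48 on the log2 scale (SE 0.40, adjusted p = 0.00437). Tekt2 fell by 0.96 (adjusted p = 0.0113), and Spag6, of the central pair apparatus, fell by 1.10 (adjusted p = 0.0204). None of the dynein heavy chains in the list, Dnah1, Dnah8 and Dnah17, was called, and Dnah1 had 5428 and 8890.1 against 4286, 4944 and 8684 (log2 difference 0.38, SE 0.28, adjusted p = 0.635). Among 15 genes of the manchette and of the joint between head and tail, 5 were lower (33.3%, beside 7.14%) and the median was -0.60. Sun5, which ties the tail to the nucleus, had 303 and 830.04 against 1814, 2078 and 2615 and fell by 2.10 on the log2 scale (SE 0.32, adjusted p = 0.00382). Spag4, another SUN domain protein of the spermatid nuclear envelope, fell by 2.28 (adjusted p = 0.0201), Cep112 by 1.55 (adjusted p = 0.0154), the microtubule protein Map7 by 1.29 (adjusted p = 0.00285) and the kinase Stk36 by 1.10 (adjusted p = 0.005). Without TSA replicate 2 the medians of these lists were -0.12 and -0.80, and the calls of Tekt2, Spag6, Spag4 and Cep112 ended. The calls of Map7 and Stk36 ended there too.

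Sperm ion channels and proteins of gamete fusion were lower in 8 of 18 cases (44.4%, beside 7.14% of all genes tested), and all 18 differences were below 0, with a median of -0.78. Catsper1, the pore subunit of the sperm calcium channel, had 655 and 708 normalised counts in TSA replicates 2 and 3 against 1629, 2268 and 3490.3 and fell by 1.84 on the log2 scale (SE 0.31, adjusted p = 0.00503). Lrrc52, the partner of the sperm potassium channel, had 61.9 and 154 against 424, 514 and 670.2 and fell by 2.41 on the log2 scale (SE 0.32, adjusted p = 0.0026), and the channel itself, Kcnu1, fell by 1.42 (adjusted p = 0.00405). Fusion proteins fell beside Izumo1: Dcst1 by 1.95, Dcst2 by 1.51, Spaca6 by 1.79 and Tmem95 by 1.32, with adjusted p of 0.00503, 0.00384, 0.00334 and 0.00382. Dcst1 had 313 and 951 against 1778, 2156 and 2434. The accessory CatSper subunits were not called, with Catsperd at -0.18 and Catsperz at -0.09, and neither was the bicarbonate-sensing cyclase Adcy10, at -0.63 (adjusted p = 0.0876). Without TSA replicate 2 the list median was -0.97 and most of its calls ended, among them that of Catsper1, at -1.78.

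Regulators of spermatid transcription and storage gave 3 called genes of 17 (17.6%, beside 7.14% of all genes tested), with a median of -0.35. Fhl5, the co-activator ACT that works with CREM, had 337 and 2251 normalised counts in TSA replicates 2 and 3 against 4227, 6162 and 10834 and fell by 2.86 on the log2 scale (SE 0.57, adjusted p = 0.0112). Sox5 had 931 and 1332 against 3188, 4568 and 5983 and fell by 1.98 on the log2 scale (SE 0.26, adjusted p = 0.00262). Rfx3, a ciliary transcription factor, fell by 1.11 (adjusted p = 0.00817), whereas Rfx2, the family member needed for spermatid development, had 4679 and 4445 against 3516, 4697 and 5802 (log2 difference 0.04, SE 0.21, adjusted p = 0.961). Crem had 5235 and 4472 against 6629, 8299.8 and 11635, below the like range in both TSA libraries, with an adjusted p of 0.0589 (-0.82, SE 0.23). Sox30, an activator of the round spermatid programme, had 2348 and 1735 against 2582, 4057 and 8893 and was not called (log2 difference -1.23, SE 0.47, adjusted p = 0.223). Germ cell isoenzymes of energy metabolism had a median of 0.01, and 1 of 17 (5.88%, below the 7.14% of all genes), the glycerol kinase-like gene Gykl1, was lower, by 0.84 (adjusted p = 0.0197). The calls of Fhl5 and Gykl1 ended without TSA replicate 2 (adjusted p = 0.138 and 0.313), that of Rfx3 ended too, and that of Sox5 did not (adjusted p = 0.0452).

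The X and Y chromosomes, silenced in meiosis and in part reactivated in round spermatids, held called genes as follows. By the GRCm38 annotation, 134 of 879 X-linked genes tested (15.2%), 70 of 347 Y-linked genes (20.2%) and 1059 of 16602 autosomal genes (6.38%) were lower. In the list of multicopy spermatid genes 3 of 7 were lower: Slxl1, with 594 and 381 normalised counts in TSA replicates 2 and 3 against 761, 1433 and 2638 (log2 difference -1.65, SE 0.39, adjusted p = 0.0264), Ssty2, with 185 and 162 against 317, 505 and 635 (log2 difference -1.45, SE 0.27, adjusted p = 0.00769), and Slx, at -1.77 (adjusted p = 0.0363). The Slx and Sly families act in postmeiotic control of the sex chromosomes. Sly had 957 and 326 against 523, 1583 and 3924 and was not called (log2 difference -1.42, SE 0.69, adjusted p = 0.397). Copies of these families are near-identical, and the authors' estimates may divide reads among them, so single genes are uncertain. The summed normalised count of all 347 Y genes was 23607 and 15631 in TSA replicates 2 and 3 and 25282 to 83249 in the like libraries. All 3 calls of the list ended without TSA replicate 2 (adjusted p = 0.109, 0.0797 and 0.247 for Slxl1, Ssty2 and Slx), and also without TSA replicate 3 (0.27, 0.0632 and 0.198).

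The TSA pair differed in the depth of the fall. Over the 1277 lower genes the median was -2.14 for TSA replicate 2 and -1.40 for TSA replicate 3, each against the 7 like libraries, and that both are below 0 follows from how the genes were chosen. TSA replicate 2 was under TSA replicate 3 in 1065 of them (83.4%), beside 54.1% of all genes tested. In the round spermatid list this was so for 23 of 29 members, and in the tail list for 29 of 36. Their mitochondrial shares, 10.4% and 4.52%, lay inside the like range of 3.54% to 13.7%, and the correlation between the pair was 0.946. With 1 library each the difference between them has no replicate check. Over all genes tested, deviations from the group mean in MTX and in HMS-I1 correlated with those of TSA at 0.655 and 0.625, and those of AA at -0.319. Genes are not independent replicates, and these values do not single out spermatid genes. In the round spermatid list replicates 2 and 3 stood at -0.03 and 0.14 in MTX and at -0.03 and -0.09 in HMS-I1. They stood at 0.19 and -0.19 in AA and at -2.20 and -0.84 in TSA. With group means 436 of the 1277 lower genes kept their call. Of 40 lower genes named by the rule given under the processing, which takes in the largest falls, 16 kept theirs. For 13 of them the call held in every alternative run except Control replicate 3 alone: Acrv1, Izumo1, Eqtn, Fam209, Calr3, Sun5, Sox5, Lrrc52, Tmco5b, Dcdc2c, Cd46, Dusp21 and Saxo1.

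In TSA replicate 1 these genes were at the level of its 5 companions. Over the 1277 genes its median difference was 0.017, beside 0.0128 over all genes, and it lay below all 5 companions for 129 genes, above them for 101 and among them for 1047. The corresponding shares of all genes tested were 13.5% below and 12.8% above. Acrv1 had 5956 normalised counts in TSA replicate 1 and 4653 to 7044 in the 5 companions. Izumo1 had 3104 and 2357 to 3475, and Ccin 8975 and 7295 to 10239.9. Each of these genes was among its companions. The round spermatid list had a median of 0.07 in TSA replicate 1, the exchange list 0.05 and the tail list 0.06. The 1277 genes held 10.05% of its non-mitochondrial counts and 9.39% to 10.9% of those of its companions.

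A test of the difference between the TSA effects of the 2 library sets, added after the data had been seen, called 466 genes lower in TSA replicates 2 and 3 than in TSA replicate 1 (2.60% of those tested) and 13 higher (0.0726%). Of the 1277 genes, 462 were among the 466. The round spermatid list gave 12 of 29 such calls, including Acrv1 (-2.31, adjusted p = 0.0189), Izumo1 (-2.35, adjusted p = 0.0204) and Eqtn (-2.62, adjusted p = 0.0203). The tail list gave 5 of 36, including Ccin (-3.50, adjusted p = 0.0472), and the exchange list 0 of 15. TSA replicate 1 is a single library, so this test borrows its spread from the other libraries. The library set cannot be told apart from what else set TSA replicate 1 aside. The test also holds the same comparison that chose the 1277 genes, so its overlap with them is largely set by that choice.

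The like libraries hold 1 control and 6 treated libraries, so the comparison is not one of TSA with Control alone. Against Control replicate 3 alone the 1277 genes had a median of -1.88, beside 0.01 over all genes tested. Control replicate 3 and both AA libraries are among the 7 against which these genes were chosen, so the direction of their medians against either is set by that choice. Against Control replicate 3, in a fit of 5 group means, 5 genes were called lower and 2 higher. At an unadjusted p under 0.05 that fit gave 1357 lower and 88 higher. Both AA libraries were the lowest of the 7 in the exchange list, with median deviations of -0.21 and -0.38 in AA replicates 2 and 3, beside -1.19 and -0.77 in TSA. They were also the lowest in the pachytene list, at -0.24 and -0.25, where TSA replicates 2 and 3 stood above them at -0.20 and -0.09. In the tail list AA replicate 3 was the lowest of the 7, at -0.32, and AA replicate 2 was not, at 0.08. Against AA the 1277 genes had a median of -1.79, beside 0.00 over all genes, and 5 genes were called lower (0.0279%) and 1 higher (0.00559%). Ldhc, for example, had 104921 and 82259.5 normalised counts in AA replicates 2 and 3, beside 80489 and 110627 in TSA.

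Sertoli, Leydig and myoid markers had small differences, mostly above 0, in TSA replicates 2 and 3. No marker of a somatic cell type was called higher, and their part in the result was not tested. Of 25 Sertoli markers 22 were above 0, with a median of 0.36, and their summed normalised counts were 113339 and 114252 in TSA replicates 2 and 3 and 81716 to 109716 in the like libraries. Sox9, the Sertoli transcription factor, had 1062 and 1109 against 636, 813 and 1093 (log2 difference 0.41, SE 0.21, adjusted p = 0.453). Of 14 Leydig markers 13 were above 0, with a median of 0.34 and sums of 61289 and 68511 against 32901 to 66508. Cyp17a1, an enzyme of androgen synthesis, had 17637 and 22069.7 against 9228, 12763 and 20051 (log2 difference 0.62, SE 0.30, adjusted p = 0.386). Myoid markers had a median of 0.18, and Acta2, smooth muscle actin, had 3735 and 3923 against 2555, 3676 and 4206. Endothelial markers had a median of 0.09, with 5 of 11 below 0, and erythroid markers -0.01, with 3 of 6 below 0. Macrophage and interferon lists were higher in TSA replicate 2, with medians of 0.66 and 0.59, than in TSA replicate 3, with 0.02 and -0.16, and AA replicate 3, a like library, was higher than both, with 0.77 and 1.03. AA replicate 3 also stood at 0.34 in the Sertoli list, where TSA replicates 2 and 3 stood at 0.33 and 0.39, and at 0.47 in the Leydig list, above both TSA libraries. Nr4a1 of the Leydig list, Aif1 of the macrophage list, the stress chaperone Hsph1 and the adipocyte hormone Adipoq were called lower. Adipocyte markers varied most, with a median of -1.15, 7 of 9 below 0 and sums of 765 and 598 in TSA and 674 to 3172 in the like libraries. Their median was 0.24 against Control replicate 3 alone and -2.10 against AA. Of 11 epididymis markers 2 passed the filter and 3 were listed at 0 in all 9 libraries, whereas no Sertoli or Leydig marker was at 0 in all 9.

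Higher calls were few. Acat2, an acetyl-CoA acetyltransferase, had 914 and 1019 normalised counts in TSA replicates 2 and 3 against 552, 623 and 667, a log2 difference of 0.65 (SE 0.15, adjusted p = 0.0271). Tead3, a transcription factor of the Hippo pathway, had 102 and 115 against 38, 55.6 and 66.8, a difference of 1.02 (SE 0.27, adjusted p = 0.0497). Gm42417, an unnamed gene model, had 141 and 34.6 against 9.6, 19.6 and 22.6, a difference of 1.98 (adjusted p = 0.0344). For Acat2 and Tead3 both TSA values lay above the whole like range, and in Gm42417 TSA replicate 2 carried the rise. The calls of Acat2 and Tead3 ended without TSA replicate 2 (adjusted p = 0.162 and 0.255) and without TSA replicate 3 (0.239 and 0.33). Next by p, and not called, came Actn3 (0.62, adjusted p = 0.0832), Prcd (0.68), Trim26 (0.68), Fabp3 (0.51), Tmem206 (0.52) and Slc6a9 (0.86). At an unadjusted p under 0.05, 214 genes were higher and 2404 lower.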

How the data were processed

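RNA of whole testes was sequenced in 15 libraries. Per the submitters' processing notes, the authors' tools were DESeq2 1.34.0, Salmon 0.12.0 and FastQC 0.11.9 (build GRCm39), and the deposited signal is a table of normalised counts for 36118 genes. Whole reads were not recovered, so depth is unknown and no counting interval is given. Symbols came from a GRCm38 annotation for 35825 identifiers, and 293 had none. The builds differ, so the sole coordinates are those of the RefSeq promoter table.

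Values were analysed as log2(value + 1), which understates the change of low genes. The fit was limma 3.58.1 in R 4.3.3 (lmFit, eBayes with a trend, two-sided, 7 residual degrees of freedom, Benjamini-Hochberg over 17896 genes, threshold 0.05). A check on simulated data drew each gene and library independently, so it does not cover shifts that libraries share. SE is the model's standard error. Named genes are the 12 largest falls with a mean of at least 50, the 8 rises with the smallest p, 33 landmark genes and the 3 largest falls of each list, and others were named after their values were seen. The members, lists and library split were chosen with earlier results of these data known, so lists carry no test. The lists held 261 tested germ cell genes, 55 of the 1277 lower genes. Alternatives were pseudocounts, filters, scalings, models, the replicate block and left-out libraries. Replicate numbers were not taken as pairs, because AA did not deviate with the other groups.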

Additional observations from a re-analysis of the deposited data

Results flagged for a closer look

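A test of the difference between the 2 library sets called 466 genes whose TSA difference was lower in TSA replicates 2 and 3 than in TSA replicate 1, and 13 for which it was higher. Of the 33 landmark genes, 4 were among the 466, beside 2.60% of all genes tested. All 4 were spermatid genes. Many of the 33 are such genes, and they were chosen with earlier results of these data known. The difference of the TSA effects was -2.31 on the log2 scale for Acrv1, -2.35 for Izumo1, -2.10 for Spaca1 and -1.77 for the calcium channel subunit Catsper1. TSA replicate 1 is a single library, the test also holds the comparison that chose the lower genes, and no cause was tested.

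A library far from the other 6 of the like set was looked for in 46 values, the 33 landmark genes and 13 list levels. Stra8 stood out in MTX replicate 2, at 1452 normalised counts, and the axonemal dynein Dnah1 in HMS-I1 replicate 3, at 8684. Chance alone flags about 1 in 20 such values, and neither gene was called between TSA and the like libraries.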

How the results depend on the processing

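The direction of the 1277 lower genes follows from their choice in the same libraries and is no sign of stability. Their number fell to 437 with 5 group means, to 462 with all 15 libraries and the library set as a term, to 838 without both AA libraries and to 5 against Control replicate 3 alone, and ranged from 262 to 1394 when 1 library was left out (262 without TSA replicate 2). The 3 higher genes became 19 with no filter, 1 at a mean of at least 50, with group means and without both AA libraries, and 0 with all 15 libraries, with a range of 0 to 5 when 1 library was left out. Deviations of same-numbered replicates correlated at 0.73, 0.655 and 0.625 among MTX, HMS-I1 and TSA, so that these 3 groups shared a shift between replicates 2 and 3, and at -0.319 to -0.121 with AA. The numbers were therefore not taken as pairs over all 4 groups. The replicate block gave 1435 lower and 6 higher genes. Scaling to the total without mitochondrial genes and quantile normalisation moved the median of all genes to 0.19 and 0.18 and left 989 and 984 lower genes. The round spermatid median became -1.07 with all 15 libraries and ranged from -2.20 to -0.84 when 1 library was left out. That of the exchange list became -0.53 with all 15, -1.21 against Control replicate 3 and -1.22 without AA, with -1.19 to -0.77 when 1 library was left out. The tail median became -0.59 against Control replicate 3 and ranged from -0.69 to -0.19, the leptotene and zygotene median became -0.41 against Control replicate 3 and ranged from -0.38 to 0.14 when 1 library was left out, and the spermatogonial medians became 0.38 (undifferentiated, quantile normalisation) and 0.39 (differentiating, scaling without mitochondrial genes). The cause of these shifts was not tested. Depth is unknown, so its limits cannot be given.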

Other observations

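Gene families beyond the lists were read after their values had been seen, and their copies may share reads. Over all genes tested 7.14% were lower, and over X-linked genes 15.2%. In the Btbd35f family of X-linked BTB domain genes 13 of 20 members were lower in TSA replicates 2 and 3. Their summed normalised counts were 398 and 392 in TSA replicates 2 and 3 and 942 to 2176 in the 7 like libraries. Of 10 Cldn34 genes, a claudin family, 9 were lower, with sums of 794 and 1161 against 2301 to 3464. All 4 Spata31d1 genes were lower, with sums of 1080.4 and 4559 against 13681 to 19289. Of 6 Smok sperm motility kinases 5 were lower, with sums of 138 and 274 against 574 to 1231. In each family both TSA sums lay below the like range. Of 31 Adam genes, membrane metalloproteases many of which sit on sperm, 12 were lower, and of 13 Ttll genes, which modify tubulin, 7 were. Among families of protein synthesis and transcription, 0 of 51 Rps, 1 of 64 Rpl, 0 of 50 Mrpl, 1 of 29 Mrps, 0 of 57 Eif and 0 of 28 Polr genes were lower.

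By gene type, 100 of 583 processed pseudogenes (17.2%) and 1065 of 16602 protein-coding genes (6.41%) were lower. Among the Y-linked genes tested, 50 of 347 were listed at 0 in both TSA replicates 2 and 3, beside 24 in both MTX, 21 in both HMS-I1 and 21 in both AA libraries of the same replicate numbers. Over all 17896 genes tested these counts were 74 in TSA, 37 in MTX, 42 in HMS-I1 and 46 in AA. Of the lower genes 7 were listed at 0 in both TSA libraries, 6 of them on the Y chromosome. None of the 7 genes was at 0 in any of the 7 like libraries. In the other library set 4 of them were at 0 in TSA replicate 1 and 5 in at least 1 of its companions, and the remaining 2, Gm20831 and Gm7745, were at 0 in TSA replicates 2 and 3 only.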
